A study of Mus musculus with 8 samples.

Results

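Collagen genes encode the chains of the main structural proteins of the extracellular matrix, and they were taken here as every gene whose symbol is Col, digits, a, digits on a probe set with 1 platform symbol. In all, 47 probe sets met this rule and gave 44 genes of the 22180 genes measured, with the probe sets of a gene averaged. The 44 genes were 11 fibrillar, 6 basement membrane, 3 network and 24 other collagens. The samples were hearts, labelled myocardium, of 4 female and 4 male mice, all heterozygous for Pcyt2 (written Pcyt2+/-) and 8 months of age. Pcyt2 encodes an enzyme of phosphatidylethanolamine synthesis. Females and males carried the same genotype, so sex is what the groups contrast. No wild-type heart was analysed here. Total RNA of each heart was hybridised to an Affymetrix expression array, 1 array per animal.

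Collagen chains wind around one another into a triple helix inside the cell and are trimmed, assembled and crosslinked outside it. Fibrillar collagens, chiefly types I and III in the heart, form the cables that bear tension between muscle cells, and cardiac fibroblasts make most of them. Type IV collagen forms the sheet-like basement membrane around cardiomyocytes and capillaries, network collagens such as type VIII form lattices in vessel walls and scars, and the other types decorate fibrils, form beaded filaments or span the cell membrane.

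The deposited values were taken to be on a log2 scale, and each probe set has a median of 0 over the 8 arrays. A value therefore says how far an array lies above or below the middle of the 8 for that gene, levels of different genes cannot be compared, and the presence of a tissue's defining markers cannot be checked. The medians of the arrays lay between -0.0021 and 0.0023. Xist lay above 1.99 in the females and below -1.99 in the males, and 3 Y-linked genes lay the other way round, so the arrays matched the sex in their labels. Pcyt2 ranged from -0.057 to 0.24 in females and from -0.13 to 0.32 in males. Arrays differed in markers of other muscle. The mean of 11 fast skeletal muscle genes was 0.29, 0.10, -0.15 and -0.21 on female arrays 1 to 4, against 0.55, 0.79, -0.21 and -0.16 on male arrays 1 to 4, and Myh4, a fast skeletal myosin, was highest on female 1 (1.03), male 1 (1.57) and male 2 (2.23). The mean of 6 atrial genes was -1.16, 0.53, -0.17 and 0.35 on female arrays 1 to 4, against -0.71, 0.23, -0.95 and 0.16 on male arrays 1 to 4. The larger collagen differences and the medians that moved most are also given with those 3 arrays left out.

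Of the 44 collagen genes, 31 (70.5%) had a lower mean in females than in males, against 50.4% of all genes. None of the 44 had an adjusted p under 0.05 for the difference between females and males (limma, Benjamini-Hochberg adjustment over all genes), while 0.0316% of all genes, 7 in number, did. With only the autosomal genes fitted, 0 genes passed. At an unadjusted p under 0.05, 7 collagens (15.9%) were lower in females, against 3.32% of all genes, and 1 (2.27%) was higher, against 3.63%. The 7 were Col4a2, Col6a5, Col1a2, Col8a1, Col3a1, Col1a1 and Col5a3, and the 1 was Col14a1. In 4 collagens (9.09%) every female lay below every male, against 1.85% of all genes, and in 1 (2.27%), Col14a1, every female lay above every male, against 1.89%. Such genes have all females on 1 side of 0 because the values are centred. The median difference was -0.045 on the log2 scale, females minus males, over the collagens and -0.00058 over all genes, and -0.026 over the collagens without the 3 arrays highest in Myh4. In bulk tissue, fewer cells of a type and less RNA per cell cannot be told apart. With the 3 arrays highest in Myh4 left out, which leaves 3 females and 2 males, 27 of the 44 (61.4%) were lower in females, against 52.3% of all genes, and 3 (Col4a2, Col6a5 and Col6a6) were lower at an unadjusted p under 0.05, against 4.13% of all genes. Without female 3 that count was 4, and the share of all genes was not computed for that setting.

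**Figure D1:**
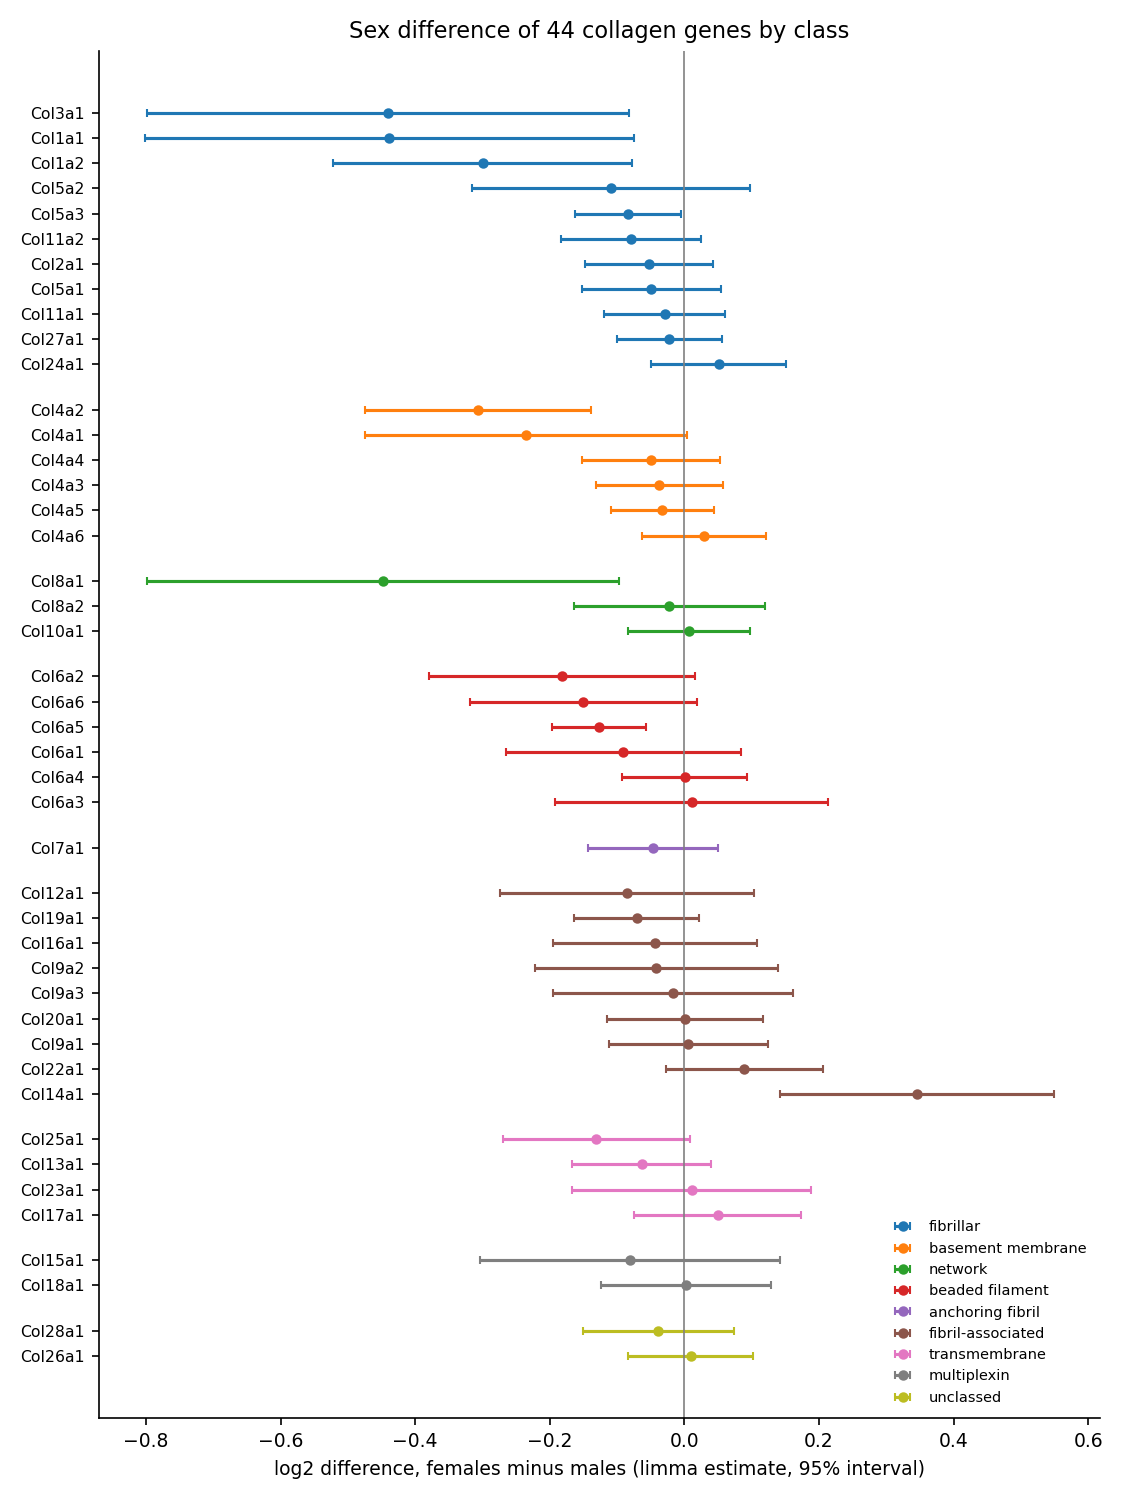
Each point is 1 collagen gene's log2 difference, females minus males, with its 95% confidence interval from limma (4 arrays per sex), grouped and coloured by class. Most points lie left of 0, Col8a1, Col3a1 and Col1a1 farthest at about -0.44 to -0.45, and Col14a1 lies farthest right at 0.35.

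The fibrillar collagens were the class most often lower in females: 10 of 11 were, with a median difference of -0.079 and a range of -0.44 to 0.051. Without male 1 the median was -0.047. Col1a1 encodes the alpha 1 chain of type I collagen, the major protein of cardiac scar and interstitium. Its values were -0.35, 0.070, -0.50 and -0.17 in female hearts 1 to 4, against 0.63, 0.14, -0.070 and 0.099 in male hearts 1 to 4. Male 1 was highest, female 2 lay among the males, and the sexes overlapped. The difference was -0.44 ± 0.16 (SE), with a 95% confidence interval of -0.80 to -0.075 and an adjusted p of 0.640 (limma). With the 3 arrays highest in Myh4 left out it was -0.22.

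Col3a1, the single chain of type III collagen, which forms thinner fibrils alongside type I, had values of -0.34, 0.16, -0.59 and -0.30 in female hearts 1 to 4, against 0.33, 0.31, -0.16 and 0.21 in male hearts 1 to 4. Female 3 was lowest and female 2 again lay among the males. The difference was -0.44 ± 0.16 (SE, 95% confidence interval -0.80 to -0.083), with an adjusted p of 0.636 (limma), and -0.27 with the 3 arrays highest in Myh4 left out. Col1a2, the partner chain of Col1a1 in type I collagen, had values of -0.25, 0.030, -0.045 and -0.14 in female hearts 1 to 4, against 0.43, 0.25, -0.040 and 0.15 in male hearts 1 to 4. Males 1 and 2 were highest, and male 3 lay among the females. The difference was -0.30 ± 0.098 (SE, 95% confidence interval -0.52 to -0.078), with an adjusted p of 0.596 (limma), and -0.11 without those 3 arrays. The 2 probe sets of Col1a2 gave -0.29 and -0.31.

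The start regions of Col1a2 and Col3a1 are printed because these genes, with Col1a1, lead the fibrillar class and correlate over the arrays, as described further on. Each is 300 bases from RefSeq (build GRCm38.p6), 5′ to 3′ on the gene's strand, with 250 bases before the annotated start site and 50 from it on. Capitals mark matches to CCAAT (or its reverse complement ATTGG), to the GC box GGGCGG (or CCGCCC) and, on the gene's strand only, to TATAAA. The Col1a2 window is at chr6:4505368-4505667 on the plus strand and holds 2 CCAAT and 2 GC box matches. The Col3a1 window is at chr1:45311288-45311587 on the plus strand and holds 1 TATAAA match.
Col1a2: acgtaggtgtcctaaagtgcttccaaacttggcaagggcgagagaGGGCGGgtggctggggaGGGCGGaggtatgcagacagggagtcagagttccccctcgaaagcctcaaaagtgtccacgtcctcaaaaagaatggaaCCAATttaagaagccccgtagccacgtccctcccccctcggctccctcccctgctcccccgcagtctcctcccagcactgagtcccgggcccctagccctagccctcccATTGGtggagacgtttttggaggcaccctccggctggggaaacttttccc
Col3a1: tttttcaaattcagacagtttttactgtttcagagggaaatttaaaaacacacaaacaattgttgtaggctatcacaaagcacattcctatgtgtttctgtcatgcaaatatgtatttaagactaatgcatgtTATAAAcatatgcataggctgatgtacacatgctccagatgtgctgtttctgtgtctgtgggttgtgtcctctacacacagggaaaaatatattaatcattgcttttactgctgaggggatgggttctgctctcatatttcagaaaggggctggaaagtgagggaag
Windows were found for 35 of the 44 collagen genes, 38 windows in all. A GC box stood in 23 of them (60.5%), against 35.7% of all 32851 windows of that length, CCAAT in 13 (34.2%), against 37.4%, and TATAAA in 5 (13.2%), against 8.32%. A match describes the letters and is not a binding site, and the annotated start need not be the one used in the heart.

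The remaining fibrillar collagens lay closer to 0. Col5a3, a minor chain of type V collagen, which helps start fibrils and sets their width, had values of -0.0089, -0.040, -0.061 and -0.050 in female hearts 1 to 4, against 0.016, 0.031, 0.12 and 0.0089 in male hearts 1 to 4. Every female lay below every male, by a narrow margin. The difference was -0.084 ± 0.035 (SE), with an adjusted p of 0.687 (limma). Col5a1 and Col5a2, the other type V chains, differed by -0.049 and -0.11, but the 2 probe sets of Col5a1 gave -0.10 and 0.0069 and their values did not follow each other (r = -0.015 over the 8 arrays). Among collagens best known from cartilage, Col2a1 differed by -0.052, Col11a1 by -0.029 and Col11a2 by -0.079. Col27a1 differed by -0.022. Col24a1 was the 1 fibrillar gene with a higher female mean, by 0.051. None of these last 7 had an unadjusted p under 0.05.

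**Figure D2:**
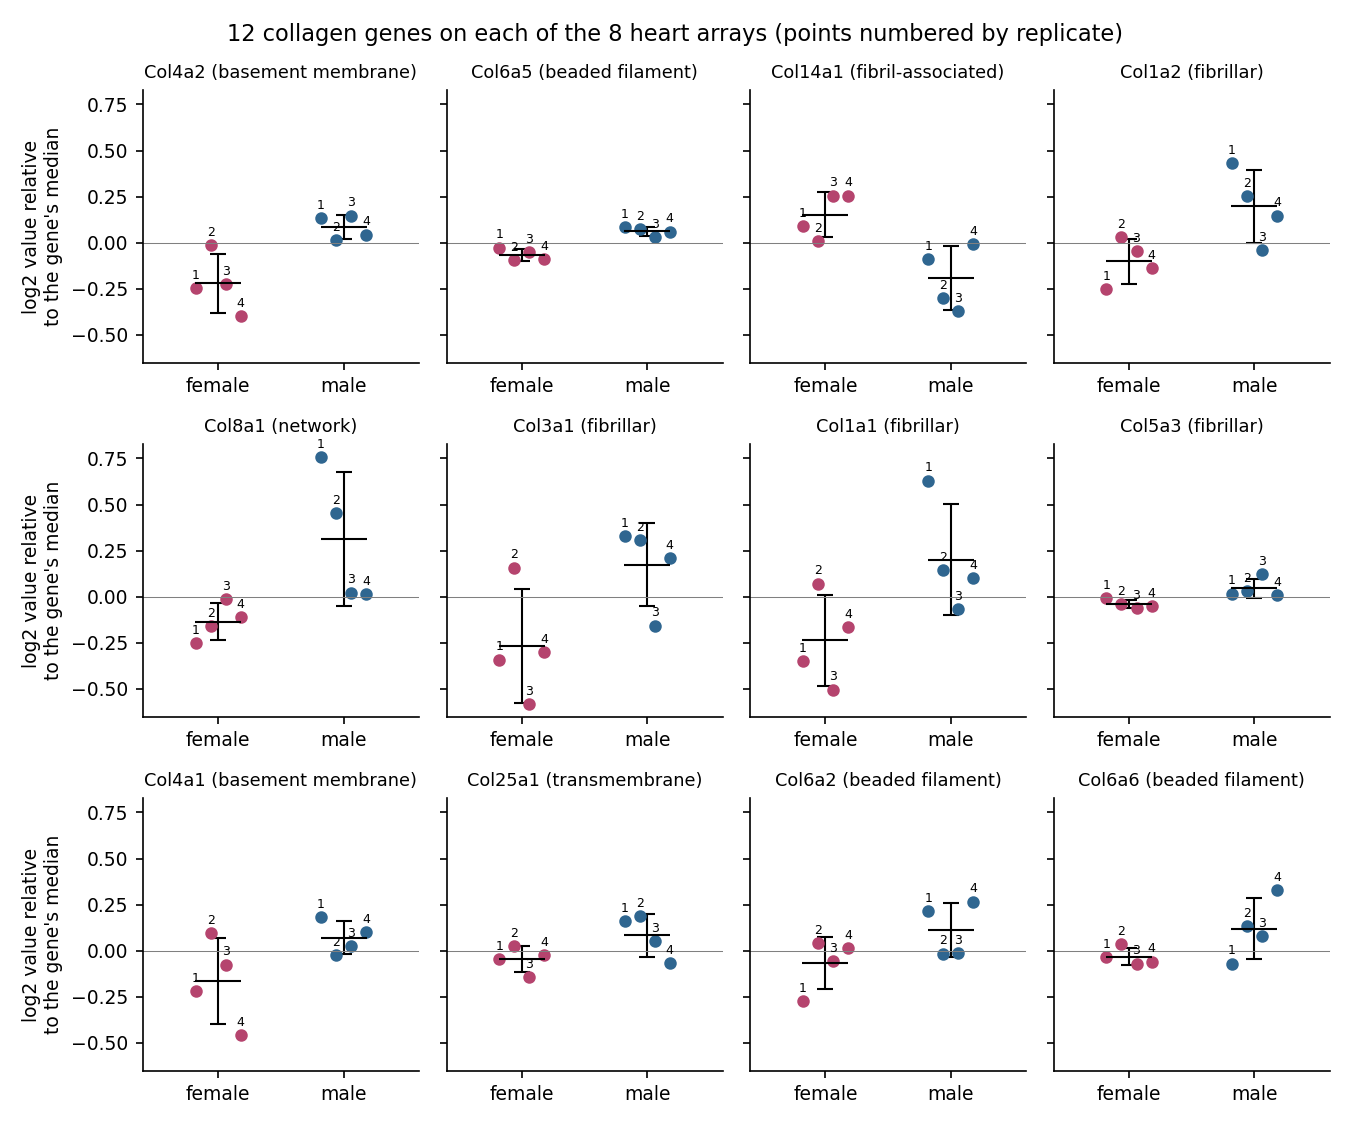
Panels show the 12 collagen genes with the smallest p as points for each array, numbered by replicate, with the mean and SD of each sex (n = 4), females left and males right. The y axis is the log2 value relative to the gene's median over the arrays. Female and male points do not overlap for Col4a2, Col6a5, Col14a1, Col8a1 and Col5a3.

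Of the 6 basement membrane collagens, 5 were lower in females, with a median difference of -0.044. The median was -0.026 without female 1 and -0.024 without male 4. A pair of genes stood apart from the others. Col4a2 and Col4a1 encode the chains of the common type IV collagen, found in nearly every basement membrane. Col4a2 had values of -0.25, -0.015, -0.23 and -0.40 in female hearts 1 to 4, against 0.13, 0.015, 0.15 and 0.044 in male hearts 1 to 4. Every female lay below every male, though female 2 and male 2 both lay within 0.015 of 0. The difference was -0.31 ± 0.074 (SE), a fold of 1.24 lower in females, with a 95% confidence interval of -0.47 to -0.14 and an adjusted p of 0.476 (limma). It was -0.31 with the 3 arrays highest in Myh4 left out.

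Col4a1 had values of -0.22, 0.095, -0.077 and -0.46 in female hearts 1 to 4, against 0.18, -0.026, 0.026 and 0.099 in male hearts 1 to 4. Female 4 was lowest and female 2 lay among the males. The difference was -0.24 ± 0.11 (SE, 95% confidence interval -0.48 to 0.0032), with an adjusted p of 0.718 (limma), and -0.14 without female 4. The chains of specialised basement membranes lay near 0. Col4a3, Col4a4 and Col4a5, which join in the glomerular basement membrane of the kidney, differed by -0.038, -0.050 and -0.033, and Col4a6 by 0.029. Col4a5 and Col4a6 are on the X chromosome, and over the 4 autosomal genes of this class the median difference was -0.14.

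Col4a1 and Col4a2 lie head to head, on opposite strands with annotated 5′ ends that overlap in RefSeq, their start sites 21 bases apart, and their windows are printed because the pair correlated over the arrays. Both are RefSeq sequences of build GRCm38.p6 with the marks given above, each 5′ to 3′ on its own gene's strand. The Col4a2 window is at chr8:11312555-11312854 on the plus strand and the Col4a1 window at chr8:11312777-11313076 on the minus strand, and they share 78 bases. The Col4a2 window holds 1 CCAAT and 3 GC box matches, and the Col4a1 window 1 CCAAT and 1 GC box match. That GC box of Col4a1 and the last of Col4a2 are the same bases, in the shared stretch, read from opposite strands.
Col4a2: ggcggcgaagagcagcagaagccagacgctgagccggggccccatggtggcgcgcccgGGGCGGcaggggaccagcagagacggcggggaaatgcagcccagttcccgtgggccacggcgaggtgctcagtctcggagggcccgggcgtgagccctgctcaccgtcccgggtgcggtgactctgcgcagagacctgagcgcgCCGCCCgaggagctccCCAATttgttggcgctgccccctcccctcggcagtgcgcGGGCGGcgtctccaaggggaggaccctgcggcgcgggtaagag
Col4a1: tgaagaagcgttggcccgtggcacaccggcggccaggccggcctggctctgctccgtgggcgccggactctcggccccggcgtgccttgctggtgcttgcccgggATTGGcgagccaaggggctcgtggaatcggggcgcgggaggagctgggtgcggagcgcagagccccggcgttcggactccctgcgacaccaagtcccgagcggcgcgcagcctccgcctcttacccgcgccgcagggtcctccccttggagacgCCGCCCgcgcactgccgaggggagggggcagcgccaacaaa
Both windows are rich in G and C, at 73.7% for Col4a2 and 74.0% for Col4a1, against 61.0% for Col1a2 and 37.7% for Col3a1.

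The 3 network collagens had a median difference of -0.023, and 1 of them stood apart. That median ranged from -0.052 without female 1 to 0.013 without female 3, and was 0.0078 without the 3 arrays highest in Myh4. Col8a1, a short-chain collagen made by vessel wall cells and in the injured heart, had values of -0.25, -0.16, -0.015 and -0.11 in female hearts 1 to 4, against 0.76, 0.45, 0.021 and 0.015 in male hearts 1 to 4. Every female lay below every male, but males 1 and 2 were far above males 3 and 4, which lay just above 0. The difference was -0.45 ± 0.16 (SE, 95% confidence interval -0.80 to -0.098), with an adjusted p of 0.623 (limma). Males 1 and 2 are also the arrays with the highest skeletal muscle values, and with the 3 arrays highest in Myh4 left out the difference was -0.11. The third array left out, female 1, had the lowest Col8a1 value of the 8 arrays (-0.25). With the fast skeletal muscle mean as a covariate on all 8 arrays the difference was -0.34. The part of skeletal muscle RNA in it was not tested. Col8a2, which encodes the other type VIII chain, had values of 0.083, -0.014, -0.16 and 0.065 in female hearts 1 to 4, against 0.014, 0.14, -0.049 and -0.037 in male hearts 1 to 4, with the sexes overlapping. Its difference was -0.023 ± 0.063 (SE), and above 0 without female 3 (0.028), without male 2 (0.019) and without those 3 arrays (0.0078). Col10a1, the collagen of hypertrophic cartilage, differed by 0.0072 ± 0.040 (SE).

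Among the 24 other collagens, 14 were lower in females, with a median difference of -0.040. The median was -0.021 without female 3, -0.022 without male 1 and -0.012 without the 3 arrays highest in Myh4. The beaded filament collagens are the 6 chains of type VI collagen, which links cells and basement membranes to the surrounding fibrils, and 4 of them were lower. Col6a5 had values of -0.028, -0.094, -0.050 and -0.090 in female hearts 1 to 4, against 0.084, 0.073, 0.028 and 0.060 in male hearts 1 to 4. Every female lay below every male within a narrow band. The difference was -0.13 ± 0.031 (SE, 95% confidence interval -0.20 to -0.057), with an adjusted p of 0.476 (limma). Col6a2, a chain of the common type VI molecule, had values of -0.27, 0.039, -0.055 and 0.013 in female hearts 1 to 4, against 0.21, -0.016, -0.013 and 0.27 in male hearts 1 to 4, with female 1 lowest and the sexes overlapping. Its difference was -0.18 ± 0.087 (SE, 95% confidence interval -0.38 to 0.016), and -0.11 without female 1. Its partners Col6a1 and Col6a3 differed by -0.091 and 0.011, Col6a6 by -0.15 and Col6a4 by 0.00058. The 2 probe sets of Col6a1 gave -0.16 and -0.026.

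The fibril-associated collagens sit on the surface of fibrils, and 5 of 9 were lower in females, with a median of -0.016. Col14a1, which binds type I fibrils and limits their growth in width, had a higher mean in females. Its values were 0.089, 0.0097, 0.26 and 0.25 in female hearts 1 to 4, against -0.088, -0.30, -0.37 and -0.0097 in male hearts 1 to 4. Every female lay above every male, with female 2 and male 4 closest to 0. The difference was 0.35 ± 0.090 (SE), a fold of 1.27 higher in females, with a 95% confidence interval of 0.14 to 0.55 and an adjusted p of 0.485 (limma). It was 0.37 with the 3 arrays highest in Myh4 left out. The r of Col14a1 over the arrays was -0.83 with Col4a2 and -0.50 with Col1a1. These r values pool the sexes, so the opposite sex differences of the genes enter them. They were not computed with the sex means removed. Col19a1, second in this class by p, had values of -0.029, 0.012, -0.021 and -0.16 in female hearts 1 to 4, against 0.054, -0.0073, 0.035 and 0.0073 in male hearts 1 to 4, with the sexes overlapping. Its difference was -0.071 ± 0.041 (SE), with an adjusted p of 0.786 (limma), and -0.035 without female 4. Col12a1, a close relative of Col14a1, differed by -0.086, Col16a1 by -0.043, Col20a1 by 0.00069 and Col22a1 by 0.089. The type IX chains Col9a1, Col9a2 and Col9a3 differed by 0.0056, -0.042 and -0.016.

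The transmembrane collagens were divided, with 2 of 4 lower in females and a median of -0.026. Col25a1, known from neurons and from the innervation of muscle, had values of -0.048, 0.026, -0.14 and -0.026 in female hearts 1 to 4, against 0.16, 0.19, 0.052 and -0.069 in male hearts 1 to 4. Its difference was -0.13 ± 0.061 (SE), with an adjusted p of 0.726 (limma), and -0.039 with the 3 arrays highest in Myh4 left out. Col13a1, found at cell junctions, had values of -0.12, 0.018, -0.0061 and -0.12 in female hearts 1 to 4, against 0.039, 0.054, 0.0061 and -0.071 in male hearts 1 to 4, a difference of -0.064 ± 0.046 (SE). It was -0.0032 without those 3 arrays. Col17a1, of the hemidesmosome, differed by 0.049 and Col23a1 by 0.011. Col7a1, which forms the anchoring fibrils of skin, had values of -0.017, 0.011, -0.073 and 0.044 in female hearts 1 to 4, against 0.13, -0.011, -0.019 and 0.058 in male hearts 1 to 4. Male 1 was highest and the difference was -0.047 ± 0.043 (SE). It was -0.018 without male 1, -0.025 without female 3 and -0.025 without the 3 arrays highest in Myh4.

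The multiplexins are basement membrane collagens that can release antiangiogenic fragments. Col15a1 had values of -0.047, 0.28, -0.19 and -0.17 in female hearts 1 to 4, against 0.17, -0.0019, 0.030 and 0.0019 in male hearts 1 to 4. Female 2 stood above the rest, and the difference was -0.081 ± 0.099 (SE, 95% confidence interval -0.30 to 0.14). It was -0.19 without female 2, -0.028 without female 3, -0.035 without female 4, -0.040 without male 1 and -0.040 without the 3 arrays highest in Myh4. Col18a1 had values of -0.025, 0.16, -0.083 and -0.040 in female hearts 1 to 4, against -0.089, 0.025, 0.033 and 0.029 in male hearts 1 to 4, a difference of 0.0023 ± 0.056 (SE). Female 2 was again highest and male 1 lay below the other males, and the difference ranged from -0.049 without female 2 to 0.031 without female 3. Col26a1 and Col28a1 were left unclassed. Col28a1 had values of -0.040, 0.0020, 0.10 and -0.045 in female hearts 1 to 4, against -0.029, 0.057, 0.15 and -0.0020 in male hearts 1 to 4, a difference of -0.039 ± 0.050 (SE), which ranged from -0.071 without female 3 to -0.0037 without male 3. Col26a1 had values of -0.053, 0.028, -0.041 and 0.10 in female hearts 1 to 4, against 0.013, -0.013, -0.032 and 0.033 in male hearts 1 to 4, a difference of 0.0090 ± 0.041 (SE), which ranged from -0.022 without female 4 to 0.030 without female 1. The sexes overlapped for both. None of these 4 genes, nor any transmembrane or anchoring fibril gene, had an unadjusted p under 0.05.

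**Figure D3:**
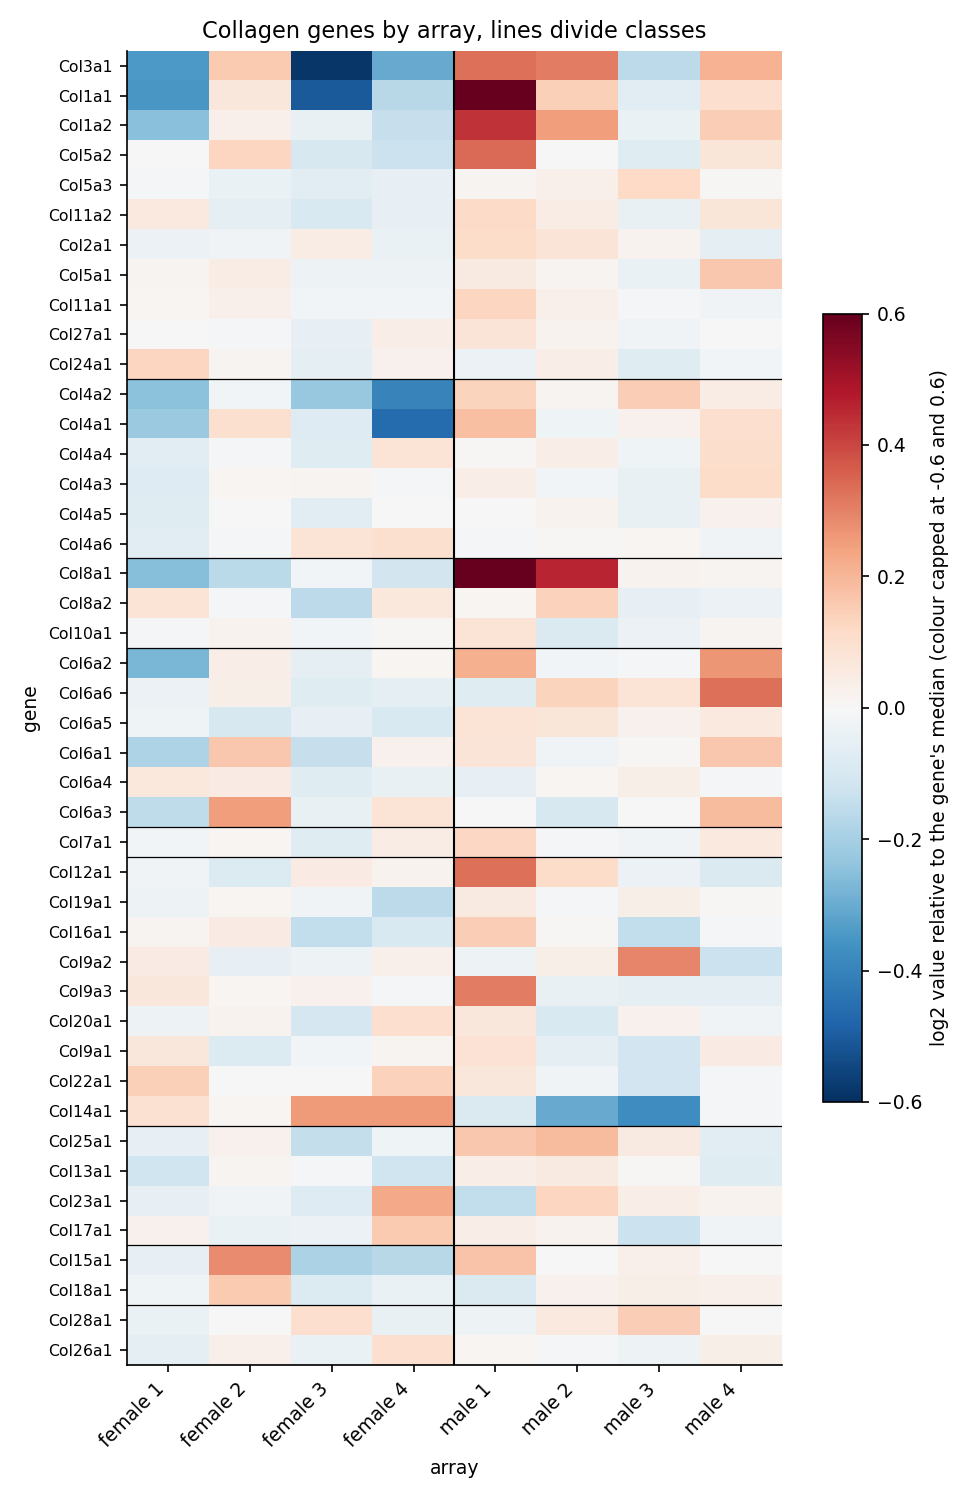
Rows are the 44 collagen genes by class and columns the 8 arrays, females left of males, with colour for the log2 value relative to the gene's median (red above, blue below, capped at -0.6 and 0.6). Male 1 is red and female 1 blue for Col1a1, Col1a2 and Col3a1, and Col14a1 shows the opposite order of the sexes.

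Collagens varied among the arrays about as much as other genes at the middle and more often at the top. The SD over the 8 arrays exceeded the all-gene median of 0.0754 in 23 of the 44 and the 90th percentile of 0.135 in 13. The mean over the 44 collagens was -0.053, 0.024, -0.068 and -0.028 on female arrays 1 to 4, against 0.11, 0.038, -0.013 and 0.040 on male arrays 1 to 4. Male 1 was highest and female 3 lowest, while female 2 lay among the males and male 3 among the females. The mean of the 11 fibrillar genes was -0.070, 0.032, -0.14 and -0.077 on female arrays 1 to 4, against 0.20, 0.088, -0.035 and 0.061 on male arrays 1 to 4, in which females 1, 3 and 4 were below every male.

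Pairs of chains, 12 in all, were compared over the 8 arrays, with exact two-sided permutation p-values adjusted by Benjamini-Hochberg over the 12. The chains of each pair join in 1 molecule or fibril, except Col15a1 and Col18a1, which are relatives that do not join. In all, 5 pairs passed an adjusted p of 0.05 by Pearson's r and 6 by Spearman's rho. Col1a1 and Col3a1 had r = 0.90 (exact permutation p = 0.000868, adjusted 0.0104) and rho = 1.0 (exact permutation p = 4.96e-05, adjusted 0.000595), and the first rho p is the smallest these permutations can give. Col3a1 was number 31 of 22179 genes by r with Col1a1. Col1a1 and Col1a2 had r = 0.88 (exact permutation p = 0.00516, adjusted 0.0187) and rho = 0.93 (exact permutation p = 0.00223, adjusted 0.00893). Col4a1 and Col4a2 had r = 0.90 (exact permutation p = 0.00193, adjusted 0.0116) and rho = 0.81 (exact permutation p = 0.0218, adjusted 0.0436), and Col4a2 was number 19 by r with Col4a1. Col6a1 and Col6a2 had r = 0.84 (exact permutation p = 0.0122, adjusted 0.0293) and rho = 0.98 (exact permutation p = 0.000397, adjusted 0.00238). Col6a1 and Col6a3 had r = 0.88 (exact permutation p = 0.00623, adjusted 0.0187) and rho = 0.88 (exact permutation p = 0.00724, adjusted 0.0217). The sixth pair by rho was Col5a1 and Col5a2, with r = 0.56 (exact permutation p = 0.154, adjusted 0.184) and rho = 0.81 (exact permutation p = 0.0218, adjusted 0.0436). The values of Col6a1 and Col5a1 are each the mean of 2 probe sets, which had r = 0.48 with each other for Col6a1 and -0.015 for Col5a1. The pairs with these genes rest on those means.

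After quantile normalization 5 pairs passed. With the mean of each sex removed, only Col6a1 and Col6a3 passed (r = 0.97, exact within-sex permutation adjusted p = 0.0417), while Col1a1 had r = 0.82 with Col3a1 and 0.76 with Col1a2. In the same setting Col4a1 and Col4a2 had r = 0.89 and Col6a1 and Col6a2 had 0.82, against 0.90 and 0.84 before. Only 576 within-sex pairings exist, which limits how small these p-values can be. Without the 2 arrays farthest from the median of the first gene, 6 arrays remain, and the pairs of Col1a1 with Col1a2 (r = 0.96) and with Col3a1 (r = 0.95) passed, at an exact permutation adjusted p of 0.0167 each. Col4a1 and Col4a2 then had r = 0.68, Col6a1 and Col6a2 0.66 and Col6a1 and Col6a3 0.89, and none of these passed. Leaving out the arrays farthest from a gene's median narrows the range of that gene, which can itself lower r. The lower r of Col4a1 with Col4a2 and of Col6a1 with Col6a2 therefore does not show how far these relations rest on those arrays. The r of Col6a1 with Col6a3 was as large as before. The pairs that did not pass with all 8 arrays had r of 0.48 for Col1a1 and Col5a1, 0.56 for Col5a1 and Col5a2, 0.59 for Col4a3 and Col4a4, 0.20 for Col8a1 and Col8a2, -0.55 for Col9a1 and Col9a2, 0.60 for Col11a1 and Col11a2 and 0.61 for Col15a1 and Col18a1, relatives that do not join.

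**Figure D4:**
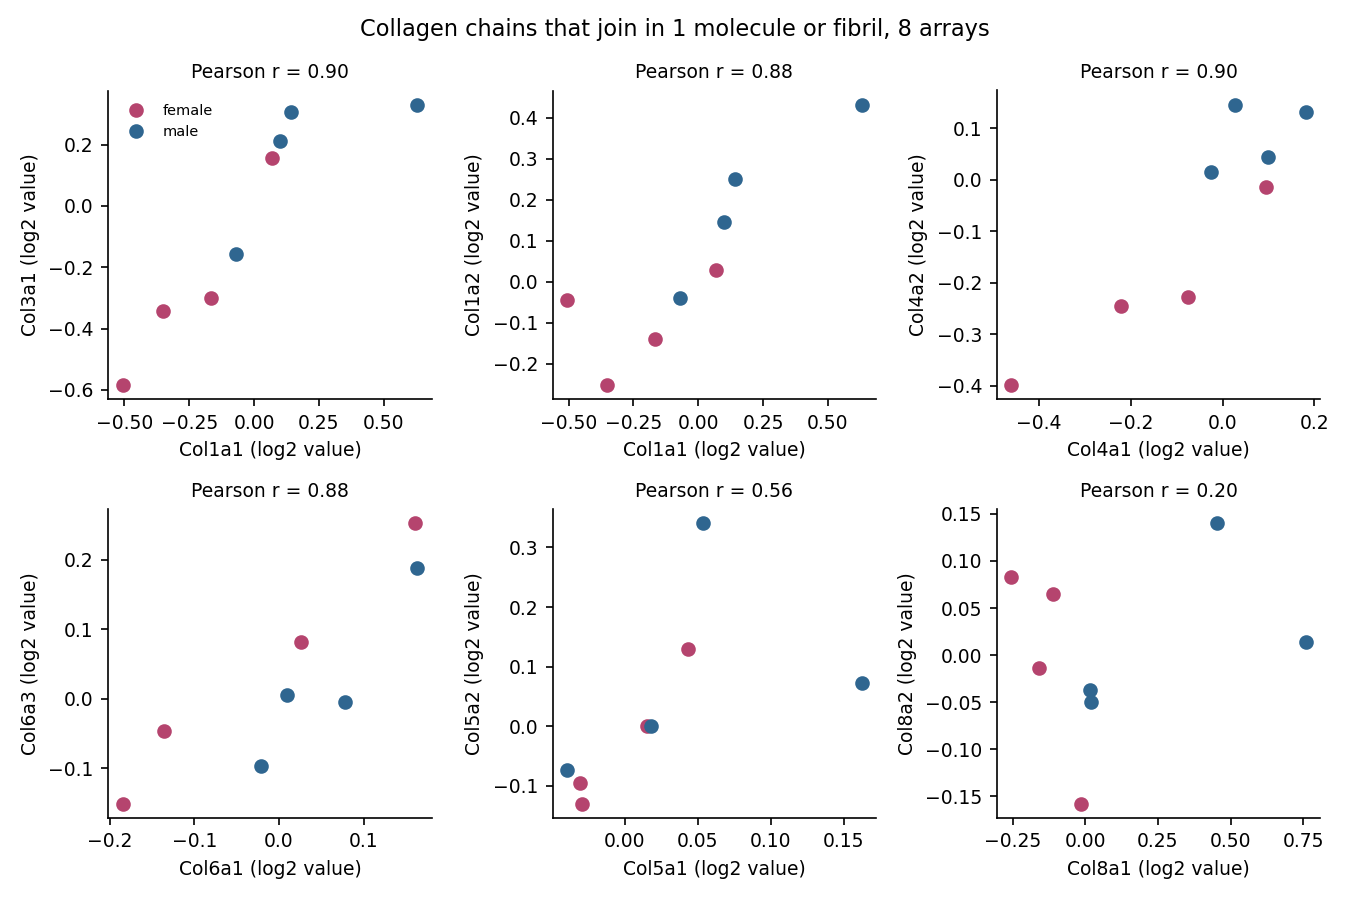
Each panel plots the log2 values of a pair of chains against each other, 1 point per array, females and males in different colours. Points of Col1a1 with Col3a1 or Col1a2, Col4a1 with Col4a2 and Col6a1 with Col6a3 lie along a rising line (r from 0.88 to 0.90), and those of Col8a1 with Col8a2 do not (r = 0.20).

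Over all 946 pairs of collagen genes the median r was 0.19 and 65.5% were above 0, against a median of 0.0015 and 50.1% over all gene pairs. The median was 0.48 among fibrillar genes, 0.25 among basement membrane genes, 0.18 among network genes and 0.097 among the others. These pairs share genes and the same 8 arrays, so they are not independent. Their r pools the sexes, so sex differences in the same direction enter it, and it was not computed with the sex means removed. By r over the 8 arrays, the genes most like Col1a1 were Pacrgl (0.99), Gm884 (0.97), Olfr558 (0.95), Olfr1532-ps1 (0.95) and Mir302d (0.95), and those most like Col4a2 were Cyp4f14 (0.99), Zc3h6 (0.97), Dynll2 (0.96), Zfp622 (0.95) and Cdh5 (0.95), an endothelial cadherin. With 8 arrays and 22179 candidates, such values are a description only.

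Genes that make, finish and read collagen were set beside the chains, and none of their members had an adjusted p under 0.05. Of 18 genes of collagen synthesis and secretion, 8 were lower in females, with a median difference of 0.014, and at an unadjusted p under 0.05, 1 was lower and 1 was higher. At that level 3.32% of all genes were lower and 3.63% were higher. P4ha2, a prolyl hydroxylase subunit, differed by -0.14, its partner P4hb by 0.094 and Serpinh1, the collagen chaperone, by 0.12. Of 13 genes of procollagen processing and crosslinking, 8 were lower, with a median of -0.0020. At an unadjusted p under 0.05, 2 were lower and 1 was higher, against the same shares of all genes. Lox, which crosslinks collagen fibrils, had values of -0.11, -0.13, -0.060 and -0.073 in female hearts 1 to 4, against 0.48, 0.39, 0.068 and 0.060 in male hearts 1 to 4. Every female lay below every male and males 1 and 2 were highest, as for Col8a1. The difference was -0.34 ± 0.093 (SE), with an adjusted p of 0.499 (limma). Pcolce2, which enhances procollagen trimming, differed by 0.25 and Loxl3 by -0.16.

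Of 9 collagen receptor and uptake genes, 6 were lower, 1 of them at an unadjusted p under 0.05 (3.32% of all genes), with a median of -0.026. Mrc2, an uptake receptor, differed by -0.11, the platelet receptor Gp6 by -0.11 and the integrin subunit Itga11 by -0.11. Of 18 fibrosis signalling genes, 15 were lower, 5 of them at an unadjusted p under 0.05 (3.32% of all genes), with a median of -0.066. The growth factor Tgfb3 differed by -0.18, the fibroblast transcription factor Meox1 by -0.15 and the matrix protein Thbs1 by -0.23. Meox1 is also in the fibroblast list below and is counted in both. For comparison, 31 of 44 collagens and 50.4% of all genes were lower in females. The lists were chosen with earlier results of these data known, so their counts are a description only.

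Markers of the cells that make collagen, and of other cells a heart sample can hold, were set beside these values as means per array. None of their members had an adjusted p under 0.05. Of 11 fibroblast markers 5 were lower in females, with a median difference of 0.035 and array means of -0.16 to 0.051 in females and -0.039 to 0.097 in males. Of 11 smooth muscle and pericyte markers 9 were lower (median -0.037, -0.050 to 0.039 in females and -0.064 to 0.11 in males). Of 10 endothelial markers 7 were lower (median -0.058, -0.11 to 0.025 in females and 0.0031 to 0.088 in males), and of 11 fast skeletal muscle markers 11 were (median -0.24), 0 of them at an unadjusted p under 0.05. Their part in the collagen differences was not tested. With the fast skeletal muscle mean as a covariate, the differences of Col8a1, Col1a1, Col3a1 and Col4a2 were -0.34, -0.36, -0.35 and -0.30. They were -0.37, -0.39, -0.42 and -0.30 with the fibroblast mean and -0.45, -0.46, -0.48 and -0.30 with the atrial mean. These fits give the size of the differences only. Dpep1, Meox1 and Gsn of the fibroblast list differed by -0.34, -0.15 and 0.18, and Kdr, Cdh5 and Egfl7 of the endothelial list by -0.19, -0.11 and -0.12. Atrial markers were lower in 0 of 6, epicardial in 4 of 7, cartilage and valve in 5 of 7, Schwann cell in 2 of 5 and cardiomyocyte in 4 of 8. Of 6 adipocyte markers 1 was lower and 5 higher, with array means of -0.054 to 0.44 in females and -0.22 to 0.043 in males. At an unadjusted p under 0.05, 2 fibroblast, 1 smooth muscle and pericyte and 3 endothelial markers were lower in females, against 3.32% of all genes. At the same level 3 adipocyte and 1 cartilage and valve marker were higher, against 3.63%, and 0 members of the other 5 lists passed in either direction.

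**Figure D5:**
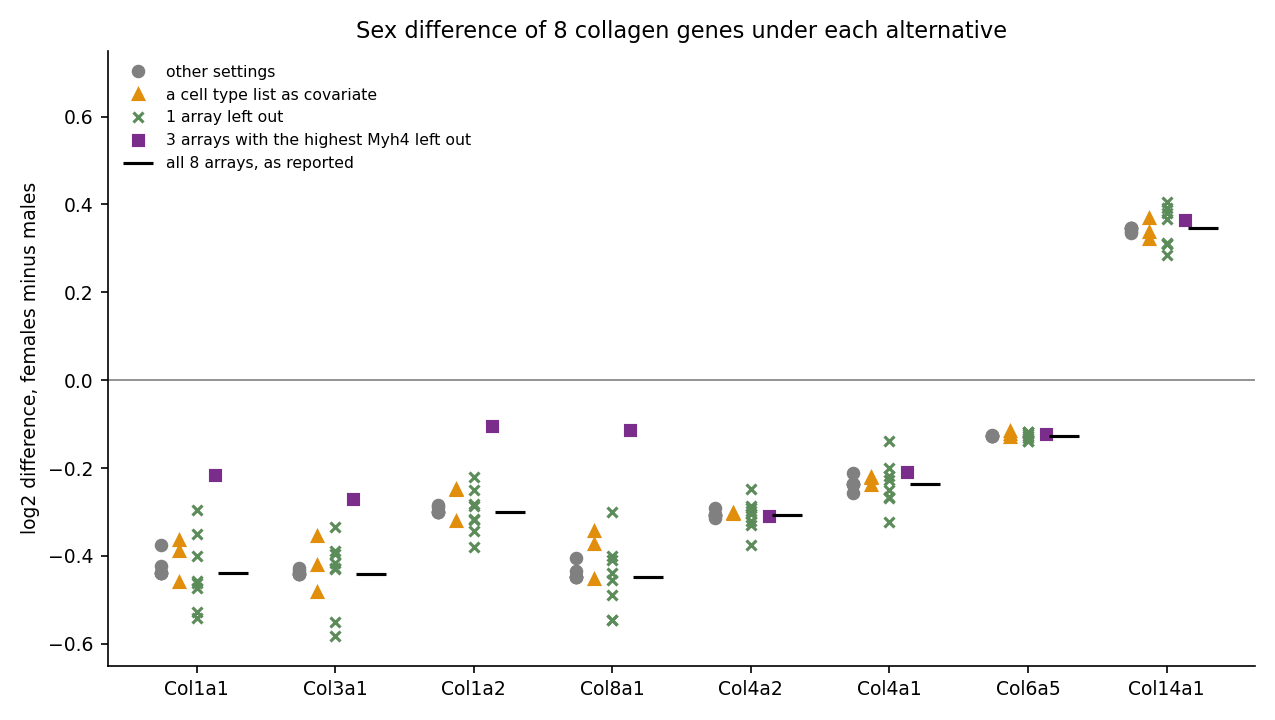
For 8 collagen genes, the log2 difference, females minus males, is shown as first computed and under other settings, with cell type covariates, with 1 array left out and with the 3 arrays highest in Myh4 left out. Col4a2 stays between -0.38 and -0.25 and Col14a1 between 0.29 and 0.41, and Col8a1 moves most of the 8 genes, to -0.11 without those 3 arrays.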

How the data were processed

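RNA from the hearts of 4 female and 4 male Pcyt2+/- mice was measured on 1 Affymetrix array each. The values deposited by the authors are on a log2 scale and centred to a median of 0 per probe set, as the values show. The log base was taken as 2, and it, the software, background correction and normalization are unstated (not given in the sources used here). Of 34351 probe sets, 23521 had 1 gene symbol in the platform annotation, 1814 had several and 9016 none. Only the first were used, and 1 probe set with Col6a1 among several symbols was left out. Col21a1 was not analysed here. Entrez IDs of 23328 probe sets matched RefSeq.

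Females minus males was fitted with limma 3.58.1 (R 4.3.3), by lmFit and eBayes with a single term for sex, on 22180 genes, with Benjamini-Hochberg adjustment over all and a threshold of 0.05. The steps were tested on simulated data. Correlations used scipy 1.17.1 and exact permutations. Values on every array were given for Col1a1, Col3a1, Col4a2, the 10 collagens with the smallest unadjusted p and the 2 with the smallest p of each class. Up to 3 genes of each other list with the smallest p, and the 5 most like Col1a1 and Col4a2, were named. The labels call the samples biological replicates. The number of arrays limits the precision. The members and lists were chosen with earlier results of these data known. Alternatives were normalization, limma's settings, covariates, arrays left out, the replicate number as a block and autosomal genes only.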

Additional observations from a re-analysis of the deposited data

Results flagged for a closer look

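Of 38 sets of 4 arrays tested (19 collagen genes in each sex), 1 held an array far from the other 3, where chance gives about 5% of such sets. Col18a1 in male 1 was -0.0886 on the log2 scale, while the other males lay between 0.0248 and 0.0335. The gap was 0.929 of the males' whole range, above Dixon's critical value.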

How the results depend on the processing

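No collagen gene had an adjusted p under 0.05 (limma) in any of the 20 alternatives, and 27 to 36 collagen genes, or probe sets taken singly, were lower in females over the 19 that bear on that count. The count lower at an unadjusted p under 0.05, whose alternatives were chosen after seeing the data, was 7, ranged from 4 to 10 with 1 array left out and was 3 without the 3 arrays highest in Myh4. The share of all genes was not computed with 1 array left out, so the counts of 4 to 10 cannot be set against it. Of all genes, 7 passed, against 3 after quantile normalization, 0 of the autosomal genes and 4 to 7 with 1 array left out (4 without male 3). A replicate block gave 8 genes, 0 collagens and 31 collagens lower. The labels do not say that the replicate numbers pair the sexes, so the arrays were not taken as pairs. Deviations of same-numbered arrays from the sex means correlated at 0.0062 to 0.14, and 5 of the 8 arrays correlated best with their own number. Whether the numbers mark a shared structure was not tested. The basement membrane median was -0.142743 over autosomal genes. Of the 12 pairs, 1 passed with sex means removed and 2 without the 2 farthest arrays. Among medians only that of the network class turned sign (-0.0523 to 0.0129). Of the 19 genes refitted by name, the differences that turned sign were those of Col18a1 (0.0023 at first, -0.00121637 quantile, -0.000345474 fast skeletal, -0.00877017 atrial, -0.00728862 fibroblast, -0.020409 without the 3 Myh4 arrays, -0.0490801 to 0.0307757 with 1 array left out), Col8a2 (-0.0226 at first, 0.0169598 fast skeletal, 0.00779692 without those 3 arrays, -0.0523054 to 0.0281416) and Col26a1 (0.0090 at first, -0.00148446 atrial, -0.0219899 to 0.0296511). Without the 2 farthest arrays, r was -0.190954 for Col4a3 and Col4a4, -0.719748 for Col8a1 and Col8a2, -0.010448 for Col11a1 and Col11a2 and -0.243459 for Col15a1 and Col18a1. The causes were not tested. Filters on brightness were not run because centred values hold none. Signal over background is unknown.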
